A study of Mus musculus with 2 samples.

Results

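The inflammasome and pyroptosis genes were read from a kidney RNA-seq table as a set of 10 named genes, of which 9 had a row among the 20002 genes of the table. They comprise the sensors Nlrp3, Aim2 and Nlrc4, the adaptor Pycard, the inflammatory caspases Casp1 and Casp4, the pore former Gsdmd, the cytokines Il1b and Il18 and the receptor antagonist Il1rn. They were chosen by gene symbol, and Il1rn was not analysed here. Kidney RNA of C57BL/6J mice was compared between 1 control library and 1 library labelled CKO (the CKO-labelled library), for a proximal tubule-specific conditional knockout of Regnase-2, the product of Zc3h12b. In the methods this model is an AAV9 vector carrying shRNA against Regnase-2, given through the tail vein, so the label stands for a knockdown by RNA interference and not for a deleted allele. The control mice carried AAV9 too, described as empty vector in the account of the vector and as control shRNA in the account of the sequencing. AAV9 is described there as reaching mainly proximal tubule cells, and neither group had a further treatment. Injection is placed at 11 weeks of age, and the kidneys for sequencing are described as coming from mice aged 14 weeks, whereas the vector protocol has kidneys taken at 16 weeks. RNA is described as taken from a left kidney, and a figure legend gives the mice per group for its quantitative data as a whole. The number of mice behind each library and any pooling were not given in the sources used here.

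Inflammasomes are protein platforms of the innate immune system. A sensor that meets a microbial or danger signal recruits the adaptor ASC, encoded by Pycard, which brings caspase-1 molecules together so that they cleave and activate each other. Active caspase-1 matures the cytokines IL-1β and IL-18 and cuts gasdermin D, whose freed end forms pores in the plasma membrane and can end in the lytic death called pyroptosis, while caspase-4 of mice, also known as caspase-11, cuts gasdermin D after sensing bacterial lipopolysaccharide in the cytosol. In the kidney the pathway is studied in resident and recruited myeloid cells and in tubular cells, where IL-18 is known as a product of the injured epithelium.

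A read count was taken as the deposited value less a constant of 34 in the control library and 50 in the CKO-labelled library, because the columns begin sharply at 35 and 51. This reading of the columns was inferred from their lowest values and is not stated by the sources. The libraries then held 38851231 and 43588721 reads. Reads of the CKO-labelled library were multiplied by 0.667 to bring the median gene to the same level (scaled reads), and a log2 ratio is that of scaled CKO-labelled reads to control reads with 1 added to each. With 1 library per group there was no replicate check and no test. The 95% Clopper-Pearson intervals in brackets cover counting error only, and they describe these 2 libraries, not the conditions.

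The target of the shRNA, Zc3h12b on chromosome X, had 47 control reads and 59 CKO-labelled reads, or 39.3 after scaling. Its log2 ratio was -0.25 (-0.83 to 0.33), an interval that spans 0, and with equal library totals the ratio was 0.16. The target gene thus did not check the labels at this depth, so every direction given here is that of the CKO-labelled library. In tissue sections the study reports less Regnase-2 and more NGAL, encoded by Lcn2, in CKO mice. Lcn2 had 28 control and 3797 CKO-labelled reads here, which is an outcome and not a check of the target.

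Promoters are shown for the members whose ratios stand farthest apart, Il1b and Casp4 at the upper end and Nlrc4 at the lower, together with Nlrp3, whose transcription is known to be primed by NF-κB. RefSeq promoter entries of GRCm38.p6 matched 8 of the 9 genes with 10 start sites. The 250 bases before each start were searched on both strands for the NF-κB consensus, TGANTCA (AP-1), TTCNNNGAA (STAT), AAANNGAAA (interferon response) and TATAAA. Capitals mark TATAAA in Il1b, and in Casp4 and Nlrp3 the NF-κB consensus (the stretches beginning with G) and AAANNGAAA read on the opposite strand (the stretches beginning with T). Nlrc4 held none of these letters. The windows are chr2:129371140-129371389 on the minus strand for Il1b, chr9:5308599-5308848 on the plus strand for Casp4, chr11:59541319-59541568 on the plus strand for Nlrp3 and chr17:74459109-74459358 on the minus strand for Nlrc4, each 5′ to 3′ along the gene.
Il1b: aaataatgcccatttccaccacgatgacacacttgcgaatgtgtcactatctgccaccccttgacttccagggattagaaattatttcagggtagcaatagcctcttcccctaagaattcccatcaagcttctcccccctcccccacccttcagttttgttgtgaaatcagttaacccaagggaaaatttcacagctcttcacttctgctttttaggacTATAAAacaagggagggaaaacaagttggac
Casp4: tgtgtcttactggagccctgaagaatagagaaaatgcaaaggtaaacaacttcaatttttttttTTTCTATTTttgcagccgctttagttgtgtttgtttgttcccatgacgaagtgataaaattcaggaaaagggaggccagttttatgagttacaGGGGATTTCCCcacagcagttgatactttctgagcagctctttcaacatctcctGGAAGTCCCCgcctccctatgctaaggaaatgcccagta
Nlrp3: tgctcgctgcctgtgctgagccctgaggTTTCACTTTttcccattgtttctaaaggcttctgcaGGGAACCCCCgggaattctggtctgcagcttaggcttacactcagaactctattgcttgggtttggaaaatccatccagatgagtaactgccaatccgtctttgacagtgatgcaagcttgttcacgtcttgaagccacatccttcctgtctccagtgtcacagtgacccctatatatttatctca
Nlrc4: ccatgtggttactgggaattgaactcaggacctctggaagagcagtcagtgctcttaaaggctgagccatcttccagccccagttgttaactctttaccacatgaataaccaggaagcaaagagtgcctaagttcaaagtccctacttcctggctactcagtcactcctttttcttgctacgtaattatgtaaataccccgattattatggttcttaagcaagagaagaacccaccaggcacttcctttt

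The NF-κB consensus lay in 3 of the 10 windows, against 7.25% of 32851 promoter windows of the same length, 8.85% of those of genes kept and 11.0% of those of genes at least 2-fold higher. The 3 are not independent, since 2 are overlapping windows of Casp4 that hold the same NF-κB sites. The third is the Nlrp3 window shown, and the other Nlrp3 window, chr11:59542436-59542685, held none of these letters. AAANNGAAA was in the same 3 windows, against 9.37% of all windows, 7.35% of those of genes kept and 11.5% of those of genes 2-fold higher. TATAAA was in 2, those of Il1b and Il18, against 12.4% of all windows, 7.25% of those of genes kept and 9.42% of those of genes 2-fold higher. In Il1b it begins 31 bases before the start, and in Il18 it lies on the opposite strand, 175 bases before the start. TGANTCA and TTCNNNGAA were in 0 of the 10 windows and in 6.75% and 7.02% of all. A match describes the letters in the window and is not a measured binding site.

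Of the 9 genes, 6 were 2-fold or more higher in the CKO-labelled library, where 13.4% of the 17469 genes kept were (10 or more scaled reads in either library). These were Nlrp3, Aim2, Casp1, Casp4, Gsdmd and Il1b, or 5 without Nlrp3 when 10 was added before log2 or when the constants were kept and the columns scaled by the median ratio. Nlrc4 was the 1 gene at least 2-fold lower, against 5.35% of all genes, and Pycard and Il18 stayed within 2-fold. All 9 had at least 10 reads in each library, so none entered the comparison through the higher library alone. The median log2 ratio of the 9 was 1.41, and that of all genes kept was 0.02, with the middle 50% of genes between -0.33 and 0.48. Scaling to equal totals moved the median of all genes to 0.44, and under it Nlrc4 no longer passed 2-fold, Pycard did, and Il18 changed sign.

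**Figure D1:**
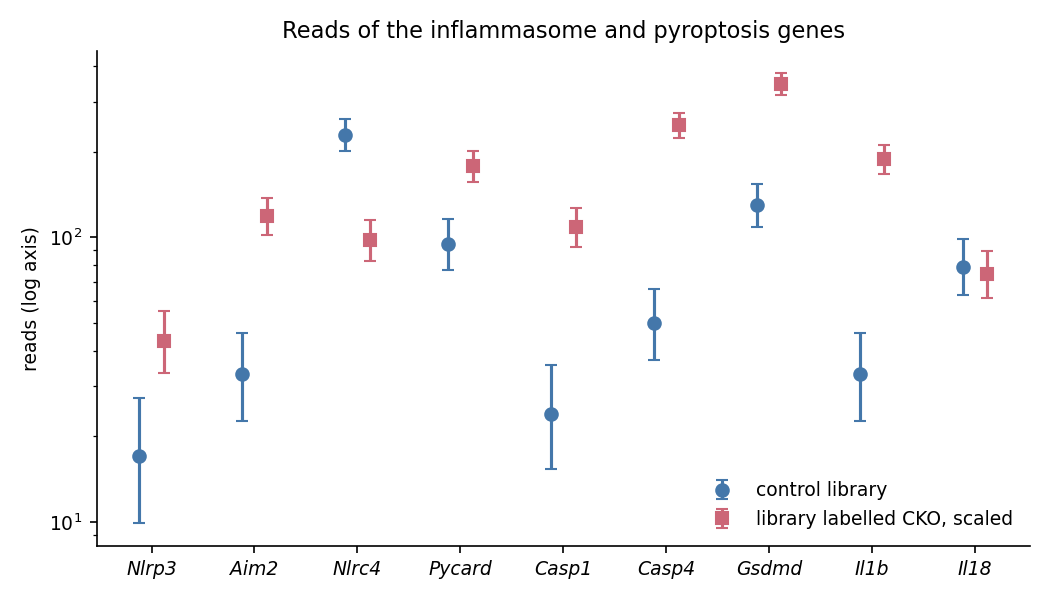
Reads of the 9 genes on a log axis, with circles for the control library and squares for scaled reads of the CKO-labelled library; bars are exact 95% Poisson intervals for counting error. Nlrc4 is the gene whose control value (230) lies well above the CKO-labelled value (98.0), and the values of Il18 (79 and 74.7) overlap.

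Among the sensors, Nlrp3 responds to potassium efflux and other signs of cell damage. It had 17 control reads and 65 CKO-labelled reads, or 43.3 scaled. The log2 ratio was 1.30 (0.56 to 2.21), so at this depth the gene was higher in the CKO-labelled library, and its counting interval runs from under to well over 2-fold. It fell short of 2-fold with 10 added before log2 (0.98) and with the constants kept and the columns scaled (0.59), and it was not kept when 50 scaled reads were asked for. Aim2, a sensor of double-stranded DNA in the cytosol, had 33 control reads and 179 CKO-labelled reads, or 119 scaled. Its ratio of 1.82 (1.31 to 2.44) lay past 2-fold over the whole interval.

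Nlrc4 went the other way. It forms an inflammasome with NAIP proteins, which bind bacterial flagellin and secretion system parts. Its 230 control reads stood against 147 CKO-labelled reads, or 98.0 scaled, a log2 ratio of -1.22 (-1.54 to -0.93). Per kilobase of transcript its level was above that of Aim2 in the control library (48.6 and 11.6 reads per kb) and below it in the CKO-labelled library (20.7 and 42.0 scaled reads per kb). Its value was lower there under every alternative tried, from -1.24 to -0.42, the latter with the deposited values left unscaled, but short of 2-fold in 3 of them (-0.81 with equal totals, -0.99 with the constants kept and the columns scaled, and -0.42).

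Pycard encodes ASC, which links sensor and caspase. It had 95 control reads and 267 CKO-labelled reads, or 178 scaled, with a log2 ratio of 0.90 (0.56 to 1.26). The gene was higher in the CKO-labelled library but short of 2-fold, and its interval includes 2-fold.

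Casp1 encodes the protease that the adaptor recruits. Its reads were 24 (control) and 163 (CKO-labelled, 109 scaled), a log2 ratio of 2.13 (1.56 to 2.86). Casp4, the protease of the noncanonical pathway, had 50 and 372 reads, the latter 248 scaled, and a ratio of 2.29 (1.88 to 2.77). Both caspases were over 4-fold higher with the values as scaled here, and their intervals overlap. The genes lie side by side on chromosome 9 (RefSeq, GRCm38.p6), Casp1 at 5298517 to 5307281 and Casp4 at 5308849 to 5336791, with 1568 bases from the end of Casp1 to the start of Casp4.

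Gsdmd encodes the substrate that carries out pyroptosis. It had 130 control reads and 520 CKO-labelled reads, or 347 scaled, and a log2 ratio of 1.41 (1.13 to 1.70). Its interval lies wholly past 2-fold, below that of Casp4, and overlaps that of Casp1.

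The cytokines differed from each other. Il1b, whose product is a strong inducer of fever and leukocyte recruitment, had 33 control and 283 CKO-labelled reads, the latter 189 scaled. Its log2 ratio of 2.48 (1.99 to 3.08) was the highest of the 9 and placed it at rank 399 of the 17469 genes kept. With the constants kept, Casp4 stood just above Il1b, at 1.74 against 1.73 scaled and 2.315 against 2.296 unscaled. Il18, whose product drives interferon-γ production, had 79 and 112 reads, the latter 74.7 scaled. Its ratio of -0.08 (-0.51 to 0.35) showed no difference detectable at this depth, and its sign turned with equal totals, to 0.33.

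**Figure D2:**
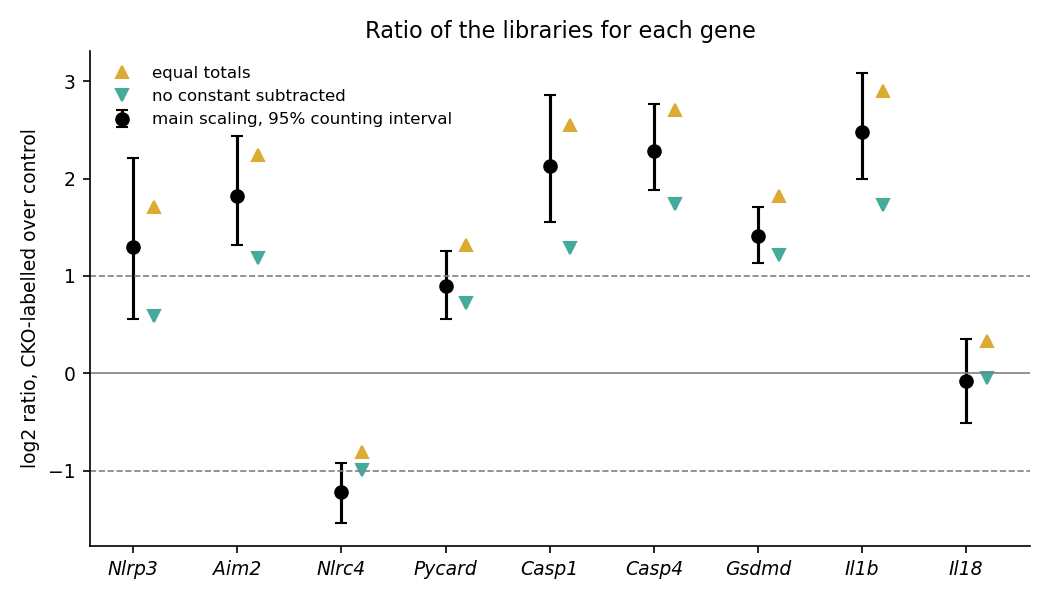
Log2 ratio of each of the 9 genes, CKO-labelled over control library; circles with bars are the main scaling with the 95% counting interval, upward triangles equal library totals, and downward triangles the deposited values with no constant subtracted, scaled by the median ratio. Dashed lines mark 2-fold; Aim2, Casp1, Casp4, Gsdmd and Il1b lie above the upper line by every mark, Nlrp3 falls to 0.59 with no constant subtracted, and Il18 crosses 0.

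Levels between genes were compared as reads per kilobase of the principal GENCODE M21 transcript. In the control library Il18 had the highest level, 91.9 reads per kb, followed by Gsdmd at 72.5 and Nlrc4 at 48.6. In the CKO-labelled library the highest level was that of Gsdmd, 193 scaled reads per kb, followed by Casp4 at 173 and Il1b at 139. Il18 stood at 86.8 there and Nlrc4 at 20.7, so both had been passed by Casp4 and Il1b. Nlrp3 had the lowest level in both, 4.23 and 10.8 reads per kb. Pycard is left out of this order because its principal transcript in GENCODE M21 runs past the gene's end in RefSeq.

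Ratios of genes within a library do not depend on the scaling between libraries, but they do depend on the constants subtracted. Il1b had 0.418 reads for each read of Il18 in the control library and 2.53 in the CKO-labelled library, a 6.05-fold change (3.73 to 9.90, exact conditional interval). With the constants kept it was 3.47-fold, below that interval. Per kilobase too, Il18 was above Il1b in the control library and below it in the CKO-labelled library. Il18 against Il18bp, which encodes the soluble protein that binds and blocks IL-18, went from 0.520 to 0.223, a change to 0.428 of the control value (0.301 to 0.612), or 0.482 with the constants kept. Casp1 against its substrate gene Gsdmd went from 0.185 to 0.313, 1.70-fold (1.05 to 2.84), but with the constants kept the change was 1.06-fold. Nlrp3 against Pycard went from 0.179 to 0.243, and the interval of this 1.36-fold change (0.742 to 2.60) includes 1; with the constants kept it was 0.918. Il1b against Il1rn and Il1r1 against Il1r2 were not analysed here.

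Further ratios were chosen after the values of Nlrc4 had been seen. Nlrc4 had 1.51 reads for each read of its partner sensors Naip1, Naip2, Naip5 and Naip6 together in the control library and 0.319 in the CKO-labelled library, a change to 0.211 of the control value (0.158 to 0.281). Against Aim2 the ratio went from 6.97 to 0.821, a change to 0.118. With the constants kept these changes were 0.325 and 0.218. The Naip genes are near-identical copies, so the split of reads among them is uncertain.

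**Figure D3:**
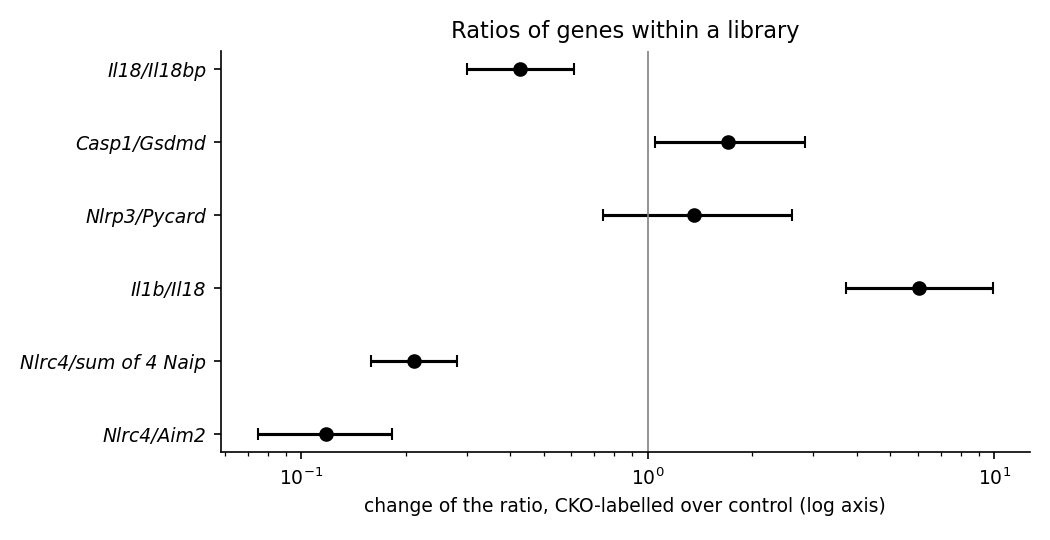
Change of the ratio of genes within a library, CKO-labelled over control library, on a log axis with exact conditional 95% intervals for counting error; the line at 1 is no change. Il1b gained on Il18 (6.05), while Nlrc4 lost against the Naip genes (0.211) and Aim2 (0.118).

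Other genes of the pathway came from a list of 66, of which 52 had a row and 14 were not analysed here. All 52 passed the filter on low reads, but Nlrp10, Naip1, Gsdmc4 and Pjvk did so only through the CKO-labelled library, where they are higher. Of the 52, 26 passed 2-fold upward in the CKO-labelled library and 2 passed it downward, beside 13.4% and 5.35% of all genes, and the median log2 ratio was 0.98. The 48 genes with 10 or more scaled reads in both libraries, a filter chosen after the values were seen, held 23 and 2 such genes and had a median of 0.55. The median of the list was 0.36 when 50 scaled reads were asked for, and 0.37 with no constant subtracted and the columns scaled by the median ratio. Differences between roles were not tested. The shares of all genes kept, 13.4% higher and 5.35% lower, stand beside each count by role and marker list below that uses the main scaling and filter. Counts under other settings have other shares. Genes kept numbered 17682 with equal totals, 20002 with the constants kept and 14396 with 50 scaled reads asked for. All-gene counts under other settings are given with the dependence on processing.

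Of 7 further sensors, 5 were at least 2-fold higher, of which Nlrp10 and Naip1 passed the filter through the CKO-labelled library alone. With 50 scaled reads asked for, 3 of the sensors were kept and 1 was 2-fold higher, and with no constant subtracted (again scaled) 1 was, with a median log2 ratio of 0.67 in place of 1.77. Naip5, a flagellin sensor, had the highest log2 ratio, 2.54, from 13 control and 121 CKO-labelled reads. Naip1 (1.93), Naip6 (1.80) and Nlrp1b (1.60) were also higher. The reads of Naip5 and of these genes are uncertain because each has near-identical relatives. Nlrp10 had 3 and 19 reads, for a log2 ratio of 1.77 (0.31 to 4.48). Nlrp6, a sensor best known from epithelium, had 4799 control and 3581 CKO-labelled reads, the latter 2387 scaled. Its log2 ratio of -1.01 (-1.07 to -0.94) was the lowest of the 7, just past 2-fold, and became -0.59 with equal totals and -0.98 with the constants kept and the columns scaled. Among the listed sensors, Nlrc4 and Nlrp6 were thus the ones lower in the CKO-labelled library, and both were lower under every scaling tried. Their relatives Nlrx1 (-0.61) and Nod2 (-0.67), outside the lists, were lower too, short of 2-fold.

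Among 15 regulators of activation, 9 were at least 2-fold higher and 0 lower by that much. With the constants kept and the columns scaled 7 were, without Cgas (0.92) and Gm12250 (0.83). Zbp1, a sensor of Z-form nucleic acid, led with 23 control and 305 CKO-labelled reads and a log2 ratio of 3.09 (2.53 to 3.82). The guanylate-binding protein genes Gbp5 (2.49) and Gbp2 (2.42), which have near-identical relatives, followed with the channel gene Panx1 (2.47). With the constants kept Gbp2 led instead of Zbp1, at 2.27 against 2.05 scaled and 2.84 against 2.62 unscaled. The DNA-sensing genes Tmem173, encoding STING, and Cgas had ratios of 1.91 and 1.64, and the ATP receptor gene P2rx7 had 1.80. Trim30a (1.47) and Gm12250, encoding IRGB10 (1.11), completed the 9. Nek7, whose product binds NLRP3, had the lowest ratio, -0.47, from 3932 and 4262 reads. Its ratio was -0.05 with equal totals and turned to 0.12 with the deposited values unscaled.

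Of 11 genes of other gasdermins, membrane rupture and repair, 3 were at least 2-fold higher, beside 13.4% of all genes kept. All 3 were near-identical gasdermin C copies with uncertain reads. They were Gsdmc2 (2.37), Gsdmc4 (2.09, from 3 and 24 reads, interval 0.70 to 4.79) and Gsdmc3 (2.06). With the constants kept and the columns scaled 2 were, without Gsdmc4 (0.42). Gsdme, encoding another pore-forming gasdermin, had a log2 ratio of -0.47 from 208 and 225 reads. That became -0.05 with equal totals and 0.18 with the deposited values unscaled. Ninj1, whose product ruptures the membrane late in lytic death, had the lowest ratio, -0.61, from 3290 and 3231 reads. Within 2-fold also lay the repair genes Chmp3, Chmp4b and Vps4b, between -0.05 and 0.09.

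Of the other IL-1 family ligands listed, 2 had a row. Il33, an alarmin of epithelial and stromal nuclei, had 250 control and 1160 CKO-labelled reads and a log2 ratio of 1.63 (1.43 to 1.83). Il1f5, the older symbol of the IL-36 receptor antagonist gene Il36rn, had 25 and 17 reads and a ratio of -1.08 (-2.12 to -0.19). The lower value has few reads behind it. It was short of 2-fold with equal totals (-0.69), with 10 added before log2 (-0.71) and with the constants kept and the columns scaled (-0.38), and it turned to 0.18 with the deposited values unscaled.

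Among 8 receptors and decoys, 6 were at least 2-fold higher, or 4 with the constants kept and the columns scaled, when Il18bp (0.9955) and Il1rl1 (0.76) fell short. The IL-18 receptor genes were highest, Il18r1 with 17 and 261 reads at a log2 ratio of 3.28 (2.65 to 4.16) and Il18rap with 11 and 123 reads at 2.79 (2.01 to 3.94). With the constants kept and the columns scaled these 2 ratios were 2.015 and 1.35. Il1rl2, at 1.39, then stood above Il18rap, as it did unscaled (1.96 against 1.92). The genes for both receptor chains and for the decoy Il18bp (1.14) were therefore higher while Il18 itself was not. Il1rl2 (2.06), Il1rl1 (1.39) and Il1r1 (1.29), which encode receptors for IL-36, IL-33 and IL-1, were higher as well. Sigirr, encoding an inhibitory receptor of the family, had the lowest ratio, -0.50, from 2090 and 2212 reads. This value was -0.08 with equal totals and 0.09 with the deposited values unscaled. In receptor signalling 2 of 9 genes were at least 2-fold higher, beside 13.4% of all genes kept. They were Irak3 (1.55), which encodes an inhibitory kinase-like protein, and Irak4 (1.09, or 0.98 with the constants kept and the columns scaled). Irak1 was lowest at -0.33, which turned to 0.08 with equal totals and 0.25 with the deposited values unscaled. The median of the 9 was 0.00, which became 0.42 with equal totals.

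**Figure D4:**
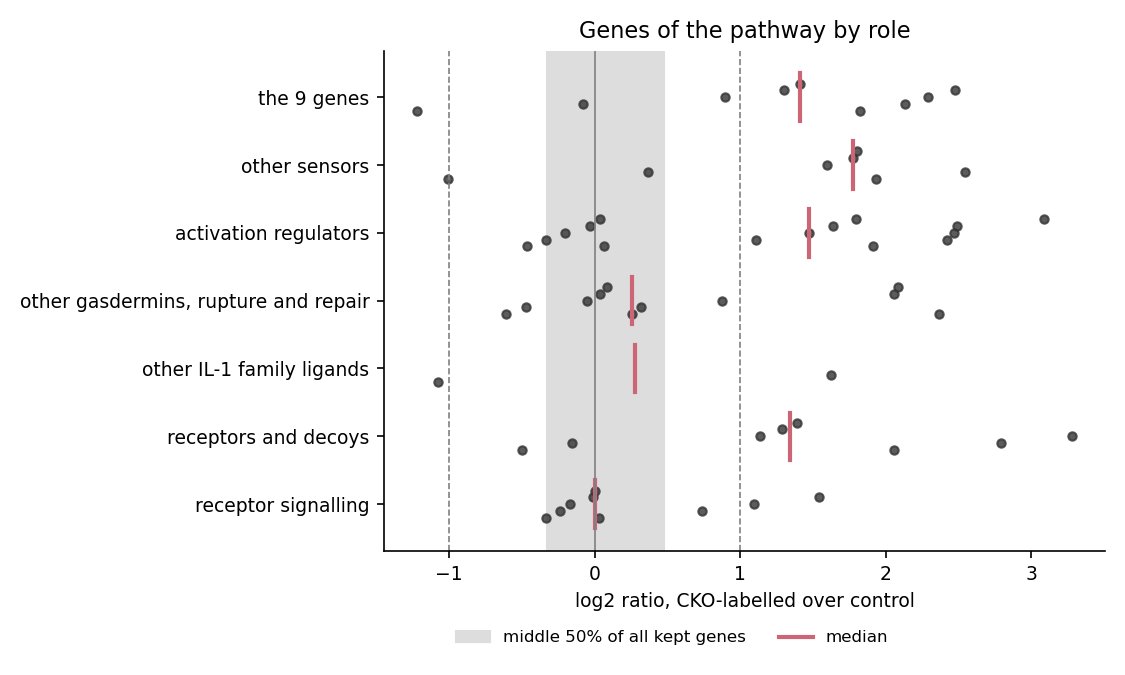
Log2 ratio of each gene, CKO-labelled over control library, for the 9 inflammasome and pyroptosis genes and for 52 other genes of the pathway by role; red lines are medians, dashed lines 2-fold, and the grey band holds the middle 50% of all genes kept (-0.33 to 0.48). The medians of the 9 genes (1.41), the other sensors (1.77), the activation regulators (1.47) and the receptors and decoys (1.34) lie right of the band, and receptor signalling lies at 0.00. With no constant subtracted, scaled by the median ratio, the median of the other sensors is 0.67.

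Kidney tissue was checked by its markers. Those of the proximal tubule (10 of 10 found, led by Slc34a1 with 147064 control reads), thick limb and distal tubule (Umod, 90047), collecting duct (Aqp2, 4762), podocyte (Podxl, 4782) and endothelium (Plvap, 3854) were all present. No marker found in the table had 3 or fewer reads in either library. The constants subtracted leave every row with reads in both libraries, so this does not cover markers without a row. Those were 7 of 11 neutrophil, 4 of 5 B cell, 1 of 8 T and NK cell and 1 of 6 tubular injury markers. In whole tissue, fewer cells of a type and less RNA per cell cannot be told apart, and the same holds for more.

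Most macrophage and monocyte markers were higher together with the 6 genes. Of 17 macrophage and monocyte markers, all of which were found, 14 were at least 2-fold higher and 0 lower by that much, with a median log2 ratio of 2.58. Their reads summed to 6228 (control) and 34794 (CKO-labelled, 23196 scaled). Csf1r was the most abundant in the control library (2244 reads) and Lyz2 in the CKO-labelled library (9836 reads). Lyz2 also had the highest ratio, 3.66. The 3 within 2-fold were Csf1r (0.51), Ly6c2 (0.32) and Mertk, the lowest at -0.32. Taken as the difference from the median of this list on the log2 scale, Il1b stood at -0.10, Casp4 at -0.29, Casp1 at -0.44, Aim2 at -0.75, Gsdmd at -1.17, Nlrp3 at -1.28, Pycard at -1.68, Il18 at -2.66 and Nlrc4 at -3.80. The part of these cells in the result was not tested.

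Of 7 dendritic cell markers 6 were at least 2-fold higher, of which Flt3 and Xcr1 passed the filter through the CKO-labelled library alone. With the constants kept and the columns scaled 3 of 7 were. The list had 481 control and 1631 CKO-labelled reads in sum. Zbtb46 was their most abundant gene in both and had the lowest ratio (0.35), and Itgax had the highest (2.57). Of 8 T and NK cell markers 7 were found, with 71 and 317 summed reads. Cd4 led in the control library and Cd3g in the CKO-labelled library, Cd3g had the highest ratio (2.22) and Ncr1 the lowest (-0.46). Cd3e, Cd8a and Nkg7 passed the filter through the CKO-labelled library alone. Of 11 neutrophil markers 4 were found, with 58 and 267 summed reads. Of these, 2 were at least 2-fold higher and 1 lower. With the constants kept and the columns scaled 1 was higher and 0 lower. Csf3r was the most abundant and highest (2.37) and Ltf the lowest (-1.59, from 16 and 7 reads). S100a8 passed the filter through the CKO-labelled library alone and Ltf through the control library alone. Of 5 B cell markers Cd79b alone was found, with 23 and 40 reads. The part of these cells too was not tested.

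Proximal tubule markers, in the cells that the vector is said to reach, had a median log2 ratio of -0.87. At least 2-fold lower were 3 of 10, beside 5.35% of all genes kept. Their reads summed to 530504 (control) and 436384 (CKO-labelled, 290923 scaled). The lowest ratio was that of Slc22a6 (-1.63) and the highest that of Slc5a12 (0.41). With equal totals the median was -0.45 and 1 of 10 was at least 2-fold lower, as 1 was with the deposited values unscaled. Nlrc4 and Nlrp6 moved in the same direction as this list, and the part of these cells in their values was not tested.

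Markers of the other nephron segments and of vessels had medians near 0 with the main scaling. The thick limb and distal tubule list had a median of -0.14, from Pvalb at -1.17 to Umod at 0.47. The collecting duct list had 0.20, from Slc4a1 at -0.27 to Aqp2 at 0.79. With equal totals the collecting duct median was 0.62, and 2 of 7 genes were at least 2-fold higher. The podocyte list (-0.06, with Synpo highest at 0.28) and the endothelial list (-0.08, from Kdr at -0.67 to Emcn at 0.14) had medians below 0 that turned positive with equal totals, 0.36 and 0.34, as did the thick limb list with 0.28. Tubular injury genes stood far above them. All 5 found were at least 2-fold higher, with a median of 3.82, from Sox9 at 3.05 to Lcn2 at 6.45, and Spp1 was the most abundant with 15360 and 412220 reads. The part of injury in the result was not tested.

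**Figure D5:**
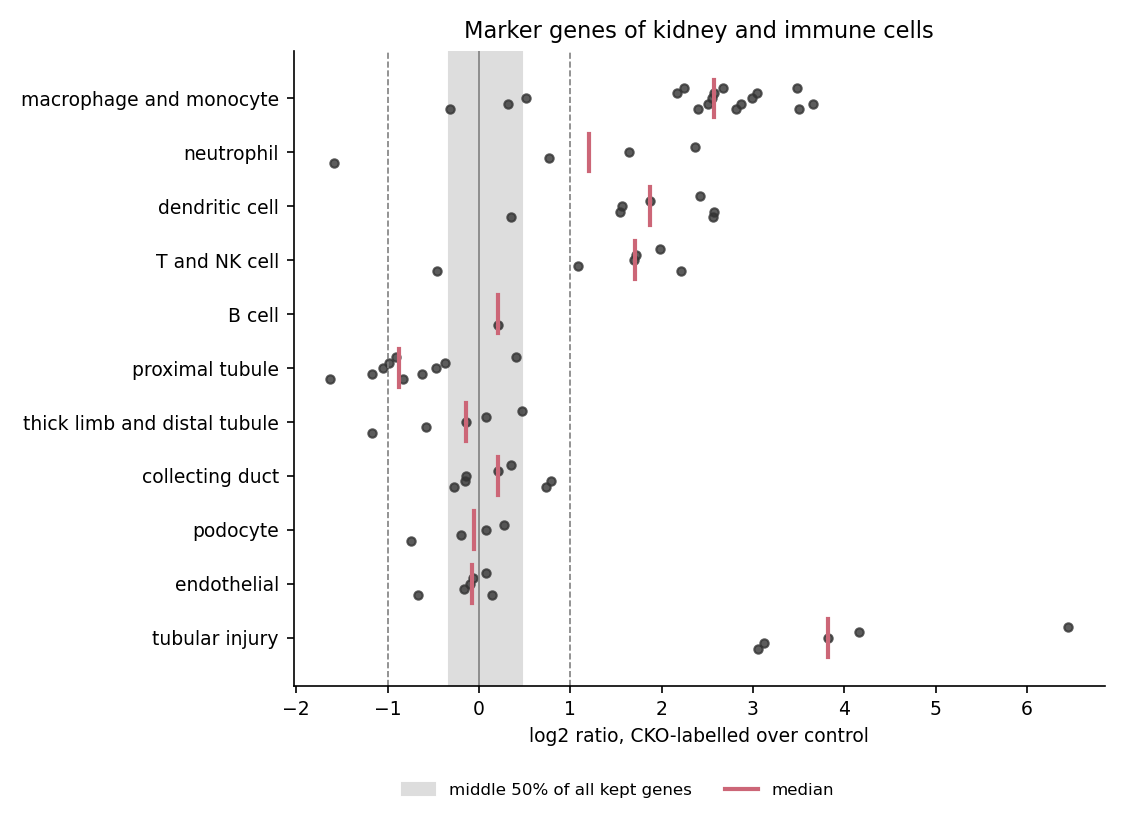
Log2 ratio of each marker gene kept, CKO-labelled over control library, by list; red lines are medians, dashed lines 2-fold and the grey band the middle 50% of all genes kept. Macrophage and monocyte (2.58) and tubular injury (3.82) medians lie right of 1, the proximal tubule median (-0.87) lies left of 0, and the other nephron and vessel lists centre near 0.

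Overlapping genes in RefSeq GRCm38.p6 bear on a few of these values, but none lies over Nlrp3 (chr11:59541569-59566955), Pycard (chr7:127991373-127993867) or Gsdmd (chr15:75862144-75867408). The strand setting of the counting was not given in the sources used here. Il18, at chr9:50554700-50581841, overlaps Bco2 at its start, which lies on the opposite strand and had 454 control and 243 CKO-labelled reads, a log2 ratio of -1.48. It also overlaps Tex12, not analysed here. Aim2, at chr1:173349547-173466040, overlaps Cadm3, which had 8 and 11 reads, and a tRNA gene not analysed here. Il1b, at chr2:129364569-129371164, overlaps the noncoding RNA gene Il1bos, which was not analysed here. Nlrc4, at chr17:74426255-74459144, contains the pseudogene Gm4708 with 2 and 1 reads. Reads shared by such overlaps cannot be told apart here. Cadm3 and Gm4708 had few.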

How the data were processed

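RNA-seq libraries of mouse kidney, 1 control and 1 labelled CKO, were made with a stranded mRNA kit. The authors aligned reads with STAR 2.7.3a to mm10, counted them with HTSeq and named DESeq2 for normalization. The deposited values are whole numbers that the file name presents as normalized counts, and they were handled as a score. The submitters' notes also name Cufflinks 2.2.1, whose values were not used here. The constants (column minimum less 1) were subtracted, a single factor, the median gene's quotient of control to CKO-labelled reads, scaled the CKO-labelled library, and 1 was added before log2. The filter asked for 10 or more scaled reads in either library, and a gene was called past 2-fold. Genes named were all members, pathway genes at least 2-fold changed or at either end of their role, and the most abundant, highest and lowest markers. Some listed genes are not reported here by name. Members and lists were chosen with earlier results of these data known. The design had expected counts, so intervals rest on the inferred reads. Steps were tested on simulated data. The simulation had the constants built in, so it could not test whether the deposited values hold them. Python 3.11.15, pandas 2.3.3, numpy 2.4.6 and scipy 1.17.1 were used. Alternatives changed the pseudocount, scaling, constants, filter and threshold.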

Additional observations from a re-analysis of the deposited data

How the results depend on the processing

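No paired analysis was possible because neither group held more than 1 library. With equal totals, genes at least 2-fold higher and lower numbered 3870 and 437, against 2334 and 934, so 89.9% rather than 71.4% of calls were higher. No member and no pathway gene was then at least 2-fold lower (0 and 0), and log2 ratios were -0.81 for Nlrc4, 1.32 for Pycard, 1.83 for Gsdmd and 0.16 for Zc3h12b. With the values as deposited and not scaled, 3574 genes were higher and 131 lower, 0 members and 0 pathway genes were lower, and ratios were -0.42 for Nlrc4, 1.29 for Pycard, 1.79 for Gsdmd, 0.52 for Il18, 0.42 for Zc3h12b and 0.18 for Il1f5, while the Il1b to Il18 change was 3.47-fold. With deposited values scaled by the median ratio, 1196 were higher and 463 lower, 16 pathway genes were higher, 0 members and 0 pathway genes were lower, and ratios were 1.19 for Aim2, 1.29 for Casp1, 1.74 for Casp4 and 1.73 for Il1b; retained constants pull ratios of low genes toward 0. At 1.5-fold 3801 genes were higher and 2423 lower. At 4-fold 749 and 166 were, with 3 members and 11 pathway genes higher and 0 of either lower. With at least 50 reads 617 genes were lower. With that filter, a pseudocount of 10 or equal upper quartiles, 1 pathway gene was lower. Of 619 other values, 534 stayed within their counting interval, 84 left it, and 1 past 2-fold (Il1f5) turned its sign. Counting genes within 2-fold too, 28 values of 14 pathway genes changed sign, 14 of them with the values unscaled and 10 with equal totals. Except for these constructions the cause was not tested. Nlrp3, with 17 control reads, has the widest interval of the 9 genes.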

Other observations

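Caspase genes were taken by symbol after the values were seen. The inflammatory caspase genes Casp1, Casp4 and Casp12 are neighbours on chromosome 9, and all 3 passed 2-fold upward in the CKO-labelled library, as did 13.4% of all genes kept. Casp12 had 53 control and 460 CKO-labelled reads and a log2 ratio of 2.51. Casp2, Casp6, Casp8 and Casp9, which act in apoptosis or in its initiation, lay between -0.27 for Casp9 and 0.34 for Casp2, with 0 of these 4 past 2-fold. With equal totals their range was 0.15 to 0.75, still short of 2-fold, and that of the inflammatory caspases was 2.55 to 2.93. No difference between these groups was tested.

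Relatives of NLRP3 and NLRC4 outside the lists, also taken by symbol after the values were seen, were uneven. Ciita (120 and 945 reads, log2 ratio 2.38) and Nlrc5 (89 and 602 reads, 2.16), which encode transactivators of MHC genes, were at least 2-fold higher. Nlrc3 had 0.95, Nod1 0.64, Nlrx1 -0.61 and Nod2 -0.67. So 2 of 6 were past 2-fold upward, beside 13.4% of all genes kept.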
